A study of Mus musculus with 4 samples.

Results

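The Gata genes are the 6 mouse genes of the GATA transcription factor family, Gata1 to Gata6, and they were taken by name from 43346 gene entries. All 6 were found in RNA-seq data of 4 parts of the embryonic mouse face at stage e11.5, all wild type. These were both nasal processes (lateral and medial) and both parts of the first pharyngeal arch (the maxillary and the mandibular process). Each process was a dissected tissue of mixed cell types with 1 library. The sources used here give neither the strain nor the number of embryos behind a library. One sample is named medial nasal in its title and tissue, while the abbreviation in brackets beside the tissue belongs to the lateral process, and it is read here as medial nasal. Library totals ran from 13216161 to 16163874 estimated counts. Levels across libraries are given as CPM, counts per 1000000 counts after TMM scaling (trimmed mean of M values), and levels between genes as TPM, which also corrects for transcript length. No level has a replicate check, since a process had 1 library, and every interval is a 95% interval that covers counting error only. In bulk tissue, fewer cells of a type and less RNA per cell cannot be told apart. The mandibular label was checked by the jaw marker Hand2, which held 1386 counts in the mandibular library and at most 20 in the other 3. It does not check the other labels. Where 4 values follow each other, they are those of the lateral nasal library, the medial nasal library, the maxillary library and the mandibular library, in that order.

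GATA factors bind short DNA sites with a GATA core through a pair of zinc fingers. Gata1 is the main factor of red blood cell and platelet precursors, Gata2 acts in blood progenitors, endothelium, mast cells, the pituitary and several kinds of neurons, and Gata3 acts in T cells, the inner ear, skin, sympathetic neurons and parathyroid. Gata4, Gata5 and Gata6 act mainly in the heart, gut and other tissues of mesodermal and endodermal origin. In humans, loss of GATA3 function causes a syndrome of hypoparathyroidism, deafness and renal defects. The family works with partner proteins of the FOG, LMO, LDB and TAL groups.

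The windows before the annotated starts of the 3 best detected members are shown because the share of CG pairs differs between Gata1 and the other two. Each window holds the 250 bases ahead of the RefSeq start on GRCm38.p6, written on the strand of the gene, with capitals at each CG pair. That of Gata2 lies at chr6:88193641-88193890 on the plus strand, that of Gata3 at chr2:9878601-9878850 on the minus strand, and that of Gata1 at chrX:7967911-7968160 on the minus strand. The Gata3 and Gata1 windows lie inside the gene spans given below, and the Gata3 window overlaps an exon of the antisense transcript Gm13256.
Gata2: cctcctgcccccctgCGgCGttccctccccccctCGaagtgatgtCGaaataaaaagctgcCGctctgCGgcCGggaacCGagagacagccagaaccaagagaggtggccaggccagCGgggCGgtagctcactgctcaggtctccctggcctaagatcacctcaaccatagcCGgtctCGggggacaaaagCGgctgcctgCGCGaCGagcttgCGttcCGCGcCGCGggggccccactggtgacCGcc
Gata3: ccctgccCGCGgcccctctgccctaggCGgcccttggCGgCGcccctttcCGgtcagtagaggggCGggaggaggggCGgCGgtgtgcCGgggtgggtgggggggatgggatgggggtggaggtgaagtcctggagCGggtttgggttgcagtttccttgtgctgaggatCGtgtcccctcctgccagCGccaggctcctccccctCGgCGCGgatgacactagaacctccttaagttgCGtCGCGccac
Gata1: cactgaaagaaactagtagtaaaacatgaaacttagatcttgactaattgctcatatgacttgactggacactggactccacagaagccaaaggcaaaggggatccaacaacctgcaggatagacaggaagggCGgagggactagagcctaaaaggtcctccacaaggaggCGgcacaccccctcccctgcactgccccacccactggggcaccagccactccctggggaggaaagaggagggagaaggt
The Gata2 window holds 22 CG pairs and the Gata3 window 19, against 2 in the Gata1 window and a median of 6 over 32851 RefSeq promoter windows of this length. Bases G and C make up 67.2% of the Gata2 window, 70.0% of the Gata3 window and 54.0% of the Gata1 window. The GATA site was searched on both strands with A or G as the last base, as AGATAA and also as its variant AGATAG, and with T as the first base, as TGATAA and also as its variant TGATAG. None of the 3 windows holds it, nor do those of the second RefSeq start of Gata2 and of Gata5, while 26.5% of all windows do. RefSeq windows were matched for 4 of the 6 members.

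Gata2 was the most abundant member in both nasal libraries and was low in both first arch libraries. It had 702 counts in the lateral and 810 in the medial nasal library, against 86 in the maxillary library and 19 in the mandibular library. These correspond to 43.2, 59.9, 5.66 and 1.41 CPM. The nasal libraries were high, the mandibular library was low, and the maxillary library lay between them. The lateral nasal level exceeded the maxillary level, the higher of the first arch levels, 7.63-fold (interval 6.09 to 9.66), so the difference between nasal and first arch levels was present without the medial nasal library. Over summed counts, the nasal processes stood 13.9-fold above the first arch processes (interval 11.4 to 17.1). The medial nasal level was 42.4-fold above the mandibular level (interval 27.0 to 70.9). Each step in the order of the 4 levels had an interval above 1. The medial nasal process exceeded the lateral nasal process 1.39-fold (interval 1.25 to 1.54), and the maxillary process exceeded the mandibular process 4.02-fold (interval 2.42 to 6.99). The gene spans positions 88193891 to 88207032 of chromosome 6 on the plus strand, and its counts pool transcripts from both annotated starts.

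**Figure D1:**
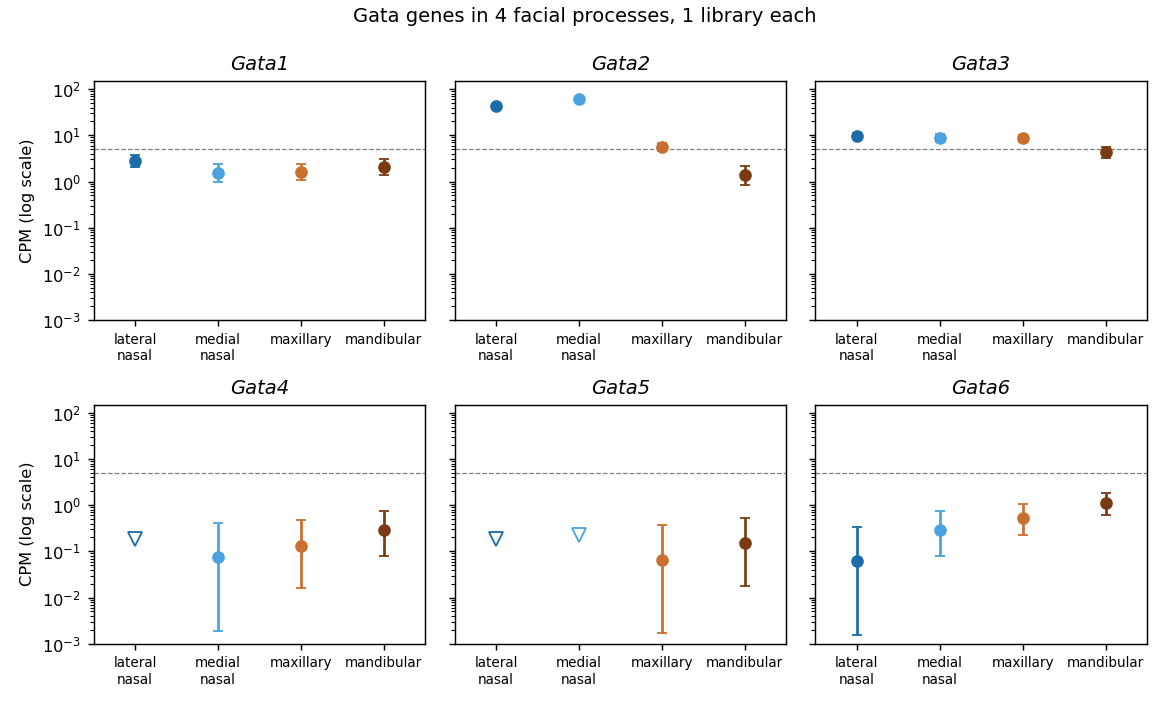
CPM (log scale) of each Gata gene in the 4 facial processes as 1 point each, with bars for the exact 95% Poisson interval of the count. Open triangles stand at the level of 3 counts where a library had 0, and a dashed line marks 5 CPM. Gata2 runs from 59.9 CPM in the medial nasal to 1.41 CPM in the mandibular library, while Gata4, Gata5 and Gata6 stay at or below 1.11 CPM.

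A gene was called between processes by a rule of level and fold. It had to reach 5 CPM in the higher libraries and differ at least 2-fold from every library of the other side. A level of 5 CPM was reached in at least 1 library by 12406 genes, and by 2 of the 6 Gata genes, Gata2 and Gata3. Gata2 was called higher in both nasal processes, as were 1.01% of all genes tested. Both Gata2 and Gata3 were called lower in the mandibular process, where the share of all genes was 0.322%. Neither was called higher in both first arch processes, where 0.29% of genes were. Neither was called higher in a single process, and the shares of all genes called there were 0.226%, 1.17%, 0.234% and 0.951%. On the log2(CPM + 0.5) scale, Gata2 was 3.90 higher in the mean of the nasal than in the mean of the first arch libraries. Of the 12406 genes tested, 9 had a higher value, and the median gene stood at -0.02. Its distance from the highest to the lowest library, 4.98 on the same scale, was exceeded by 17 genes and compares with a median of 0.34.

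**Figure D2:**
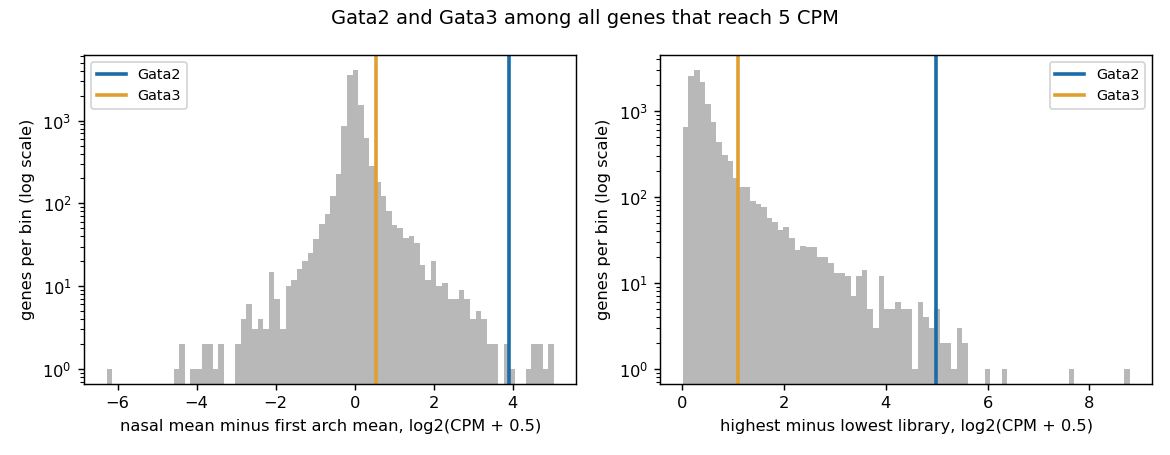
Histograms over the 12406 genes that reach 5 CPM in a library, showing the nasal mean minus the first arch mean (left) and the highest minus the lowest library (right), both in log2(CPM + 0.5), with the number of genes per bin on a log scale. The lines mark Gata2 at 3.90 and 4.98 and Gata3 at 0.55 and 1.10.

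Gata3 was nearly level in 3 processes and lower in the mandibular process. It had 159 and 118 counts in the lateral and medial nasal libraries, 132 in the maxillary library and 58 in the mandibular library, or 9.79, 8.72, 8.69 and 4.31 CPM. The maxillary level and both nasal levels did not differ beyond counting error, with ratios of at most 1.13 whose intervals ran from 0.776 to 1.44. The mandibular level lay below each of them. The lateral nasal level exceeded it 2.27-fold (interval 1.67 to 3.13) and the maxillary level exceeded it 2.02-fold (interval 1.47 to 2.80). The latter ratio barely passes the 2-fold limit, and with 0.5 CPM added to each level, with protein-coding genes alone or in deposited TPM, Gata3 was no longer called lower in the mandibular process. On the log2(CPM + 0.5) scale Gata3 was 0.55 higher in the nasal than in the first arch libraries, a difference exceeded by 681 of the 12406 genes. The gene lies on chromosome 2 from 9857078 to 9890034 on the minus strand. Of the genes that overlap it, 4930412O13Rik on the opposite strand had 37, 7, 16 and 4 counts, 9230102O04Rik on the same strand had 8, 8, 7 and 3, and the antisense transcript Gm13256 had at most 2. Of 3966 windows of 50 bases in the annotated Gata3 transcripts, 88 (2.22%) also occur in 9230102O04Rik or Gm13256 and none occurs in 4930412O13Rik. The sources used here do not say whether counting used strand, which matters for the windows shared with Gm13256.

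Gata2 and Gata3 changed places between the nasal and the first arch libraries. Because both genes are read from the same library, their ratio does not depend on how libraries are scaled. Gata2 had 4.42 counts per Gata3 count in the lateral nasal library (interval 3.71 to 5.28) and 6.86 in the medial nasal library (interval 5.65 to 8.40). In the maxillary library the ratio was 0.652 (interval 0.491 to 0.861), and in the mandibular library it was 0.328 (interval 0.184 to 0.558). The nasal intervals lay above 1 and the first arch intervals below it. Per transcript length the order was the same. Gata2 stood at 12.2 and 16.5 TPM in the lateral and medial nasal libraries, against 3.12 and 2.83 TPM for Gata3. In the maxillary and mandibular libraries, Gata2 stood at 1.51 and 0.39 TPM and Gata3 at 2.74 and 1.38 TPM. The credible intervals deposited with the TPM values, for which the sources used here name no level, did not overlap between the 2 genes in any library. They reached from 10.8 to 12.5 TPM for Gata2 and from 3.10 to 6.89 TPM for Gata3 in the lateral nasal library, and from 0.242 to 0.588 and from 1.54 to 5.04 TPM in the mandibular library. The intervals of Gata3 extend far above its TPM, and in the medial nasal and mandibular libraries the TPM of Gata3 lies below them, so its length-corrected level is less certain than its count.

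Over the whole family, summed TPM was 16.7, 20.2, 5.24 and 3.36. Gata2 made up 73.0% and 81.8% of this sum in the nasal libraries, 28.8% in the maxillary library and 11.6% in the mandibular library. The share of Gata3 was 18.6%, 14.0%, 52.3% and 41.1% in the same order. Gata1 contributed 30.1% of the smaller mandibular sum and at most 14.9% elsewhere. Gata6 held at most 0.396% in a nasal library and reached 9.23% in the mandibular library. The deposited interval of Gata1 in the mandibular library ran from 0.813 to 2.15 around a TPM of 1.01. With the wide intervals of Gata3, the shares are thus less certain than the counts.

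**Figure D3:**
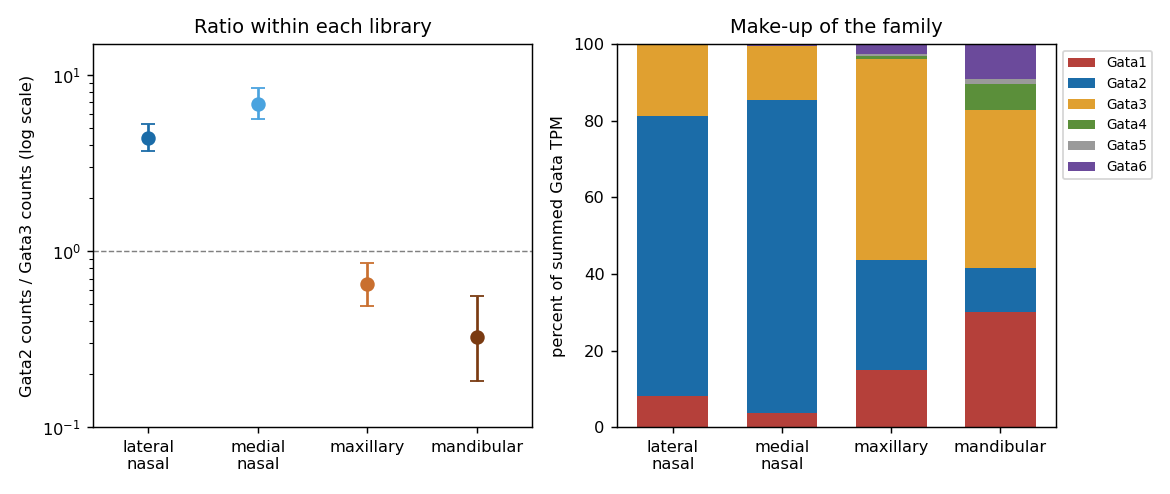
Left, counts of Gata2 divided by counts of Gata3 within each library (log scale) with exact 95% intervals, which lie above 1 in both nasal and below 1 in both first arch libraries. Right, the percentage of the summed Gata TPM held by each member in each library, with Gata2 at 81.8% in the medial nasal and 11.6% in the mandibular library.

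Gata1 was detected at a low level in every library. Its counts were 45 and 21 in the lateral and medial nasal libraries, 25 in the maxillary library and 28 in the mandibular library, or 2.77, 1.55, 1.65 and 2.08 CPM. The lateral nasal level exceeded the medial nasal level 1.78-fold (interval 1.04 to 3.15) and the maxillary level 1.68-fold (interval 1.01 to 2.86). The other 4 pairs of libraries did not differ beyond counting error. Gata1 spans 7959260 to 7978071 of chromosome X on the minus strand. Genes of red blood cell precursors, in which Gata1 acts, are given beside it. The erythroid list summed to 5058, 3238, 4760 and 3578 CPM, led by the embryonic globin gene Hbb-y at 2350, 1450, 2124 and 1643 CPM. None of the 12 erythroid genes tested was called between processes. The rules whose shares are given above each called at most 1.17% of all genes tested. The heme synthesis gene Alas2 ran from 31.3 to 42.9 CPM and the membrane anion exchanger gene Slc4a1 from 79.4 CPM upward to its highest level in the maxillary library. Klf1, an erythroid factor that Gata1 activates, ran from 3.41 to 4.22 CPM. The megakaryocyte list summed to 19.1 to 25.5 CPM, with 92, 60, 92 and 61 counts for the platelet chemokine gene Ppbp. Both lists were lowest in the medial nasal library, where Gata1 was lowest too. In the maxillary library both lists were near their highest, at 4760 and 25.2 CPM, while Gata1 stood at 1.65 CPM. The part of blood cells in the Gata1 level was not tested.

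Gata6 was rare, and highest in the mandibular library. It had 1 and 4 counts in the lateral and medial nasal libraries, 8 in the maxillary library and 15 in the mandibular library, at most 1.11 CPM. The mandibular level exceeded the medial nasal level 3.77-fold (interval 1.20 to 15.6) and the lateral nasal level 18.1-fold (interval 2.78 to 762). The mandibular and maxillary levels did not differ beyond counting error, with a ratio of 2.11 (interval 0.841 to 5.76). Gata4 had 0, 1, 2 and 4 counts in the same order, and Gata5 had 0, 0, 1 and 2. No pair of libraries differed beyond counting error for Gata4 or Gata5. The interval of a count of 0 reached up to 0.227 CPM in the lateral nasal and 0.273 CPM in the medial nasal library. Summed over libraries of a kind, the nasal processes held 5 and the first arch processes 23 counts of Gata6. Gata6 lies on chromosome 18 from 11052064 to 11085635, Gata4 on chromosome 14 from 63198922 to 63271692 and Gata5 on chromosome 2 from 180325133 to 180334699. Across the family, intervals were formed for 35 pairs of libraries with no correction for their number, and 14 of them lay above 1.

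Genes of the heart and anterior mesoderm, where Gata4, Gata5 and Gata6 act, were sparse in part. Of 12 listed genes, 5 reached 5 CPM and 2 of these were called higher in the mandibular process, as were 0.951% of all genes tested. These were Tbx1, a T-box gene of the pharyngeal region, at 5.94 CPM against at most 1.33 CPM elsewhere, and Hand1, a basic helix-loop-helix gene of heart and distal arch, at 8.46 CPM. Nkx2-5, a homeobox gene of heart progenitors, had 39 counts in the mandibular library and 1, 0 and 0 in the other 3. Tbx5 had 21 mandibular counts and at most 2 elsewhere, and the atrial gene Nppa had at most 2 counts in any library. The remaining listed genes that reached 5 CPM were not highest in the mandibular library. Mef2c stood at 31.3, 32.6, 48.7 and 45.7 CPM, and Smarcd3 at 27.3, 26.8, 32.3 and 31.9 CPM. Isl1 was highest in the medial nasal library, at 8.37, 14.3, 9.81 and 8.76 CPM. The endoderm genes Foxa1 and Foxa2 had 30 and 22 counts in the mandibular library and at most 10 and 7 elsewhere. Foxe1, also listed for endoderm, was highest there too, with 9, 25, 47 and 67 counts. Several other genes of the endoderm list did not follow that order. Pax9, its most abundant gene, stood at 59.4, 84.0, 32.3 and 35.4 CPM, Nkx2-1 had 0, 28, 3 and 1 counts, and Pax1 was called higher in the maxillary process at 23.6 CPM. The list summed to 73.3, 97.0, 65.1 and 58.0 CPM, lowest in the mandibular library. The part of heart or endoderm tissue in the Gata6 counts was not tested. The list median of the nasal minus first arch difference was -1.16 for the heart and anterior mesoderm list and -0.43 for the endoderm list, beside -0.02 over all genes tested. These medians are over members with at least 1 CPM in a library.

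Gata2 is expressed in endothelium and in neurons, and Gata3 in epithelium, so marker genes of these cells are given beside them. The 13 endothelial genes summed to 334, 359, 365 and 384 CPM. Their sum was highest in the mandibular library, where Gata2 was lowest. None was called between processes, and the rules with shares given above each called at most 1.17% of all genes. The endothelial cadherin gene Cdh5 ran from 57.8 to 69.2 CPM, and Kdr, a receptor of vascular growth factor, from 73.5 to 87.4 CPM. The list of the olfactory placode and its neurons was ordered as Gata2 was, with 86.0, 109, 18.0 and 5.34 CPM. Of its 5 genes that reached 5 CPM, 4 were called higher in both nasal processes, against 1.01% of all genes. They were Sp8, Lhx2, Fezf1 and Otx2, which encode a zinc finger, a LIM homeobox, a zinc finger and a homeobox factor. The remaining one, Emx2, was highest in the maxillary library, at 6.15, 7.54, 14.1 and 3.79 CPM, and made up most of the maxillary sum. Neurog1 and Six3 were below 5 CPM and had 43 to 61 counts in each nasal library and at most 5 in each first arch library. The part of olfactory tissue in the Gata2 level was not tested. Genes of mast cells and of the pituitary, both known for Gata2, were low in part. The mast cell genes Mcpt4 and Tpsb2 had 0 counts in all 4 libraries and Cpa3 had at most 11, while Kit, a receptor of mast cells and blood progenitors, ran from 16.9 to 31.0 CPM. In the pituitary list the hormone gene Pomc had at most 15 counts, and Pitx1, also a gene of the lower jaw, was called higher in the mandibular process at 126 CPM.

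Several brain genes were high in the medial nasal library. Of 6 brain neuroepithelium genes that reached 5 CPM, 4 were called higher in the medial nasal process, against 1.17% of all genes: En2, Hes5, Sox1 and Pou3f2. Hes5, a target of Notch signaling, had 9, 100, 8 and 3 counts, and the midbrain gene En2 had 1, 76, 3 and 2. En1 of the same list was highest in the lateral nasal library instead, with 30, 12, 8 and 1 counts. Gata2 had 702 counts in the lateral nasal and 810 in the medial nasal library, and the part of brain tissue in its level was not tested. Among genes of GABAergic neurons, which form in the midbrain under Gata2, Tal2 was called higher in the medial nasal process at 6.06 CPM. Gad2, an enzyme of GABA synthesis, was called there too at 8.57 CPM. Its TPM, 1.33 in the lateral and 1.94 in the medial nasal library, differed less than 2-fold. Sox14 was highest in the lateral nasal library, with 25, 10, 21 and 4 counts. Of serotonergic neuron genes, Fev and Tph2 had at most 1 and 5 counts. Slc6a4 had 47, 23, 22 and 29, and Lmx1b had 62, 54, 73 and 47. Most eye genes were highest in the other nasal library. Of 4 that reached 5 CPM, 3 were called higher in the lateral nasal process, against 0.226% of all genes. They were Cryaa, Cryba1 and Pmel, at 12.6, 5.11 and 9.17 CPM. These genes also had 76, 19 and 41 counts in the maxillary library. Six6 of the same list was highest in the medial nasal library, with 20, 30, 11 and 0 counts.

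**Figure D4:**
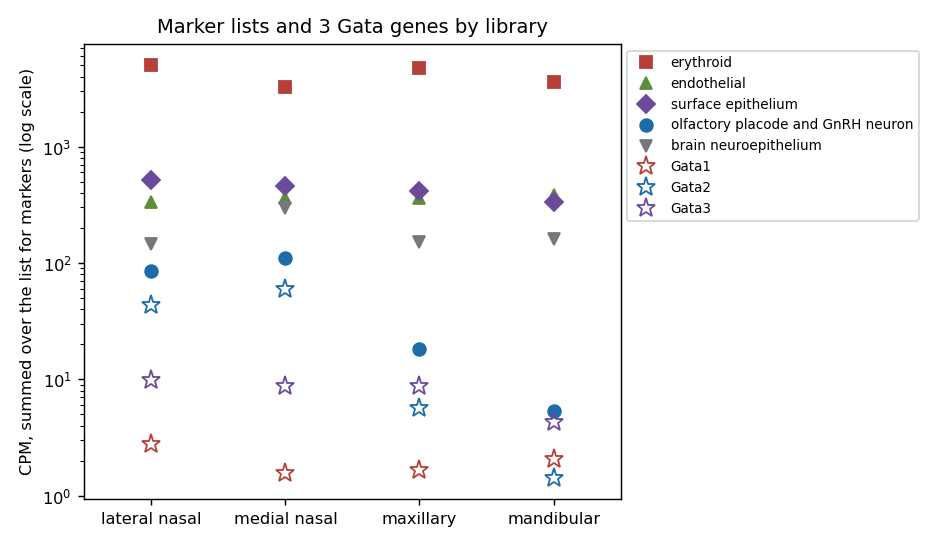
CPM (log scale) of Gata1, Gata2 and Gata3 (stars) and the summed CPM of 5 marker lists (filled symbols) in the 4 libraries, 1 point per library. The olfactory list and Gata2 both go down from the nasal to the first arch libraries, while the endothelial sum stays between 334 and 384 CPM.

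Epithelial genes were uneven. Their 15 genes summed to 515, 457, 414 and 332 CPM, so that Gata3 and this sum were both lowest in the mandibular library. The members were not ordered alike. Krt15 was highest in the mandibular library, at 12.1, 6.06, 14.5 and 27.7 CPM, and Krt5 in the maxillary library, at 47.9 CPM. The simple keratin genes Krt8 and Krt18 were called higher in both nasal processes, at 49.7 and 49.8 CPM and at 41.7 and 42.7 CPM there. Of all genes tested, 1.01% were called so. The basal keratin gene Krt14 was highest in the maxillary process instead, at 66.2 CPM, and the basal factor gene Trp63 ran from 36.8 to 51.0 CPM. The list median of the nasal minus first arch difference was 0.50, beside 0.55 for Gata3, and the part of epithelium in the Gata3 level was not tested. Genes of other tissues known for Gata3 were mostly at low counts. The otic vesicle genes had at most 7 counts in any library, the parathyroid gene Gcm2 had 0 in all 4, and of the autonomic neuron genes Dbh had 0 in all 4, although the neuroendocrine factor gene Insm1 was called higher in both nasal processes at 5.29 and 8.06 CPM. Mesenchymal genes were not ordered alike. Msx1, a homeobox gene of facial mesenchyme, stood at 266, 192, 240 and 115 CPM and was lowest in the mandibular library, as Gata3 was. Of 11 jaw mesenchyme genes that reached 5 CPM, 5 were called higher in the mandibular process, against 0.951% of all genes. They were Hand2, Hand1, Dlx3, Dlx5 and Dlx6, and Barx1 was called higher in both first arch processes.

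The partners of GATA factors were detected in every process. Of 16 listed genes, 14 reached 5 CPM and 1, Tal2, was called between processes. Tal2 was called higher in the medial nasal process, as were 1.17% of all genes tested. Zfpm1, which encodes the cofactor FOG1, stood at 7.75, 7.83, 7.44 and 5.72 CPM. Zfpm2, which encodes FOG2, the partner of Gata4, stood at 2.58, 4.36, 1.98 and 3.56 CPM. Tal1, which encodes a partner of Gata1 and Gata2 in blood and endothelium, had 163, 148, 154 and 138 counts. Lmo2, the bridging protein of the same complex, stood at 10.5 and 11.2 CPM in the nasal and at 7.84 and 7.72 CPM in the first arch libraries. Its relative Lmo4 reached 115 CPM in the mandibular library against 64.4 to 75.0 CPM elsewhere. The scaffold gene Ldb1 ran from 146 to 205 CPM, and the E-protein gene Tcf12 from 541 to 694 CPM. Crebbp, an acetyltransferase gene, ran from 245 to 366 CPM. The list median of the nasal minus first arch difference was -0.07.

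Other genes with a GATA-type zinc finger showed no called difference, and 8 of the 9 listed reached 5 CPM. Each rule with a share given above called at most 1.17% of all genes. Trps1, which encodes a repressor that binds GATA sites and is mutated in a human syndrome of face, hair and fingers, stood at 378, 403, 724 and 443 CPM. It was highest in the maxillary process. Per transcript length, Trps1 stood at 55.3, 60.1, 105 and 65.8 TPM, against at most 16.5 TPM for any Gata gene. Gatad2a, a subunit of the NuRD chromatin complex, ran from 119 to 132 CPM, and its fellow subunit Mta2 from 190 to 235 CPM. Rere, a corepressor gene, ran from 87.6 to 144 CPM. Zglp1 had at most 5 counts. The list median was -0.12.

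**Figure D5:**
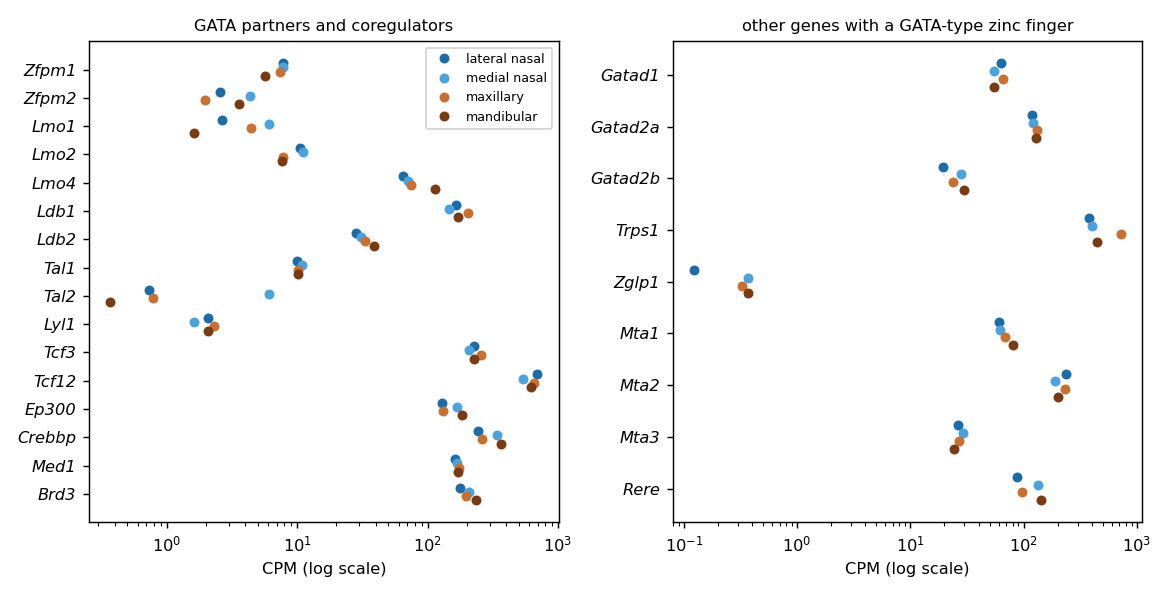
CPM (log scale) of 16 genes for GATA partners and coregulators (left) and 9 other genes with a GATA-type zinc finger (right), as points for the 4 libraries. Tal2 stands apart in the medial nasal library at 6.06 CPM and Trps1 in the maxillary library at 724 CPM.

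The genes whose pattern was most like that of Gata2 were sought among 11512 protein-coding genes at 5 CPM or more. Likeness was the root mean square difference of log2(CPM + 0.5) over the 4 libraries after centering each gene on its mean. Otx2 came first at 0.301, with 251, 314, 15 and 0 counts. It was followed by the neuronal genes Elavl3 and Neurod1 at 0.367 and 0.376. Elavl3, for an RNA-binding protein of neurons, had 208, 365, 45 and 8 counts. Neurod1, for a factor of neuronal differentiation, had 136, 155, 17 and 3 counts. St18 and Cdhr1 came next, at 0.415 and 0.437. All 5 were high in both nasal libraries and low in the mandibular library. For Gata3 the nearest included Plcg2, Dkk1, Has2 and Mapk11, at 0.0444 to 0.0844. Dkk1, a secreted inhibitor of Wnt signaling, stood at 34.0, 28.8, 27.9 and 14.0 CPM, and Has2, which makes hyaluronan, stood at 84.1, 72.4, 67.6 and 33.5 CPM. With 4 libraries these lists describe the samples at hand.

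The genes beside each Gata gene that do not overlap it are given for comparison. The nearest coding neighbors of Gata2, Rpn1 at a distance of 88.6 kb and Dnajb8 at 15.2 kb, stood at 172 to 228 CPM and at 0 counts. Taf3, 24.5 kb from Gata3, ran from 23.6 to 26.9 CPM. Celf2, the nearest coding gene on its other side but 2348 kb away, ran from 37.1 to 68.2 CPM. Hdac6, 11.4 kb from Gata1, ran from 82.3 to 87.2 CPM, and Glod5 on its other side had 0 counts. Mib1 and Rbbp8, the nearest coding genes on either side of Gata6 at 233 and 548 kb, ran from 326 to 378 CPM and from 63.9 to 76.7 CPM. Those beside Gata4 and Gata5 were low and less even. Neil2 beside Gata4 ran from 0.593 to 1.48 CPM and Blk had 0 counts, while Rbbp8nl and Slco4a1 beside Gata5 ran from 0.371 to 1.48 CPM and from 0.329 to 0.961 CPM.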

How the data were processed

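RNA was measured in 4 libraries, 1 for each nasal process and for each process of the first arch. The authors depleted ribosomal RNA, made stranded libraries of the remaining RNA, sequenced 1 end of each fragment, aligned reads to mm10 with STAR and quantified GENCODE genes with RSEM 1.4.1. The deposited files give expected counts per gene, which were rounded to whole numbers, and TPM. The deposited signal columns (bounds of the TPM interval, the SD of the count, lengths) were used as given. The SD of the count was 0 for all 6 Gata genes.

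Totals, 13216161 to 16163874 counts, were scaled by TMM (edgeR 4.0.16, R 4.3.3) over genes with 10 counts in a library. DESeq2 1.42.0 gave alternative size factors. Ratios carry exact 95% intervals from the binomial split of the counts, and counts carry exact Poisson intervals. In the figure of the Gata levels, a count of 0 was drawn at 3 counts. The calling rule was tested on simulated counts with planted changes larger than the 2-fold limit and with counting error alone. That test does not cover calls near the limit or variation between samples. No p-value was computed, because each process had 1 library. Symbols and gene positions came from an annotation of GRCm38, the build of mm10, and 42462 of 43346 gene IDs had a symbol. Entries for 96 spike-ins, with 0 counts, and 26248 entries outside the gene IDs were left out. Of the other per-sample columns, the posterior mean count served as an alternative quantity, and any further ones were not used.

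The text names all Gata genes, the called and the 4 most abundant members of each list where they bear on a Gata gene, the 5 nearest profiles, and the nearest or overlapping genes. Other list members were chosen after their values were seen. Some genes under this rule are not reported here. The Gata genes and all lists were chosen with earlier results of these data known. Alternatives changed the scaling, the quantity, the minimum level, the fold and the pseudocount.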

Additional observations from a re-analysis of the deposited data

How the results depend on the processing

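Over the alternative scalings and quantities, the ratio of the highest to the lowest library ran from 42.4 to 44.1 for Gata2, from 2.09 to 2.32 for Gata3, from 1.62 to 1.83 for Gata1 and from 15.5 to 18.5 for Gata6. The lower nasal over the higher first arch level of Gata2 ran from 7.57 to 8.09. For Gata3 that ratio ran from 0.996 to 1.13, so its direction is not fixed. Gata2 was the 1 member called higher in both nasal processes in all 13 alternatives. The number of Gata genes called lower in a single process, 2 as reported, was 1 with protein-coding counts alone, with a 3-fold threshold, and with 0.5 or 2 CPM added. It was 0 with the minimum of 5 applied to TPM or with a minimum of 20 CPM, 4 with no minimum level in CPM and 3 with no minimum in deposited TPM (Gata2, Gata4 and Gata6, without Gata3). The number called higher in a single process, 0 as reported, was 1 with a minimum of 1 CPM (Gata6) and 3 with no minimum, in CPM or in deposited TPM (Gata4, Gata5 and Gata6 in the mandibular process). The number higher in both first arch processes, 0 as reported, was 1 with no minimum, in CPM or TPM (Gata5). These added calls rest on at most 15 counts.

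No paired analysis was possible because each process had 1 library and the labels give no replicate numbers. No replicate could be left out for the same reason. For Gata4 and Gata5 no ratio of the highest to the lowest library was formed, since the lowest had 0 counts. Depth limits these 2 genes and Gata6, at 1 to 15 counts.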
